A study of Mus musculus with 7 samples.

Results

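The lysosomal genes described here number 36 and encode lysosomal enzymes, their helper proteins, lysosomal membrane proteins and, as 1 of the 36, Tfeb, the transcription factor of lysosome formation. They were picked by symbol, and all 36 had the status OK in every library, among 23508 such rows in the deposited table. RNA came from 7 libraries of spleen cells of C57Bl/6 mice from which cells carrying the surface protein CD43 had been removed with magnets. The 4 cKO libraries are labelled CD19creFoxp1 cKO, a conditional knockout of Foxp1 by a Cre that is active in B cells, and the 3 WT libraries are labelled wild type. Foxp1 encodes a forkhead transcription factor, and the study compared the B cell transcriptome with and without it. The labels name no control with the Cre alone, so effects of the Cre and of the loss of Foxp1 cannot be told apart, and they give no age and no statement that libraries come from separate animals. The p-values therefore measure the spread between these libraries, which may be technical. Libraries cKO 1, cKO 4, WT 2 and WT 3 ran on sequencing lane 5, and cKO 2, cKO 3 and WT 1 on lane 7.

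Lysosomes are acidic compartments in which hydrolases break down proteins, glycans and lipids delivered from outside the cell or by autophagy. Most of these enzymes are made in the endoplasmic reticulum, tagged with mannose 6-phosphate and carried to lysosomes by receptors, while membrane proteins such as LAMPs line the organelle. In B cells, lysosomal proteases process antigen taken up through the B cell receptor for presentation on MHC class II, and macrophages of the spleen are particularly rich in lysosomes because they degrade whole cells. Tfeb binds a short palindrome in the promoters of many lysosomal genes and raises their transcription when lysosomes are stressed or nutrients are scarce.

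Foxp1 stood at 21.3, 18.9, 18.4 and 29.0 FPKM (fragments per kilobase, relative to all mapped fragments) in cKO 1 to 4, against 33.4, 38.3 and 42.7 FPKM in WT 1 to 3. Each cKO library was lower than each WT library, although the whole-gene value includes exons outside a deletion and so checks the labels only in part. All 10 B cell markers listed were detected, with summed levels of 2892 to 6679 FPKM in cKO libraries and 4732 to 7308 FPKM in WT libraries. Depth is not given in these files. At 1 FPKM a transcript of 1 kilobase corresponded to about 40.7 (cKO 4) to 63.4 (cKO 2) fragments, as read from the smallest steps in the values. Small RNA genes took up 11.9% of all FPKM in cKO 4, but 41.9% to 60.4% elsewhere, and the median log2(FPKM + 0.5) of the genes tested was 3.33 in cKO 4, with 2.52 to 3.11 elsewhere.

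Mean levels of the 36 genes ran from 0.561 to 380.9 FPKM over all libraries. Psap, the precursor of the saposins that help enzymes reach sphingolipids, was the most abundant and made up 23.0% of the summed mean level of the 36 genes. Its level was 474.4, 316.1, 468.4 and 596.7 FPKM in cKO 1 to 4, against 243.7, 282.6 and 284.2 FPKM in WT 1 to 3. Ctsz, a carboxypeptidase, Ctsh, an aminopeptidase, and Ctsd, an aspartic protease, followed with means of 127.6, 101.2 and 100.9 FPKM over all libraries. Cd63, a tetraspanin of late endosomes, was the scarcest, at 0.371 to 1.503 FPKM in cKO libraries and 0.154 to 0.518 FPKM in WT libraries. It was the single gene of the 36 below the filter of a mean of 1 FPKM, so 35 of 36 were tested. The sum over the 36 genes was 1836, 1537, 2206 and 2163 FPKM in cKO 1 to 4, against 1297, 1293 and 1283 FPKM in WT 1 to 3. The WT libraries were close together in this sum, and each cKO library lay above them. Single genes differed between WT libraries in opposite directions, so the close sums do not show an absence of lane differences. Ctsb had 86.4 FPKM in WT 1 (lane 7), against 31.7 and 25.2 FPKM in WT 2 and WT 3 (lane 5). Laptm5 had 33.4 FPKM in WT 1, against 79.4 and 112.9 FPKM in WT 2 and WT 3. Library cKO 4 held the highest value for 26 of the 36 genes, cKO 3 for 7, WT 2 for 2 and WT 1 for 1. The share of all genes highest in cKO 4 was not computed. The median log2(FPKM + 0.5) of the genes tested was also highest in cKO 4 (3.33, with 3.11 next in cKO 1), so this count may not be particular to lysosomal genes.

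**Figure D1:**
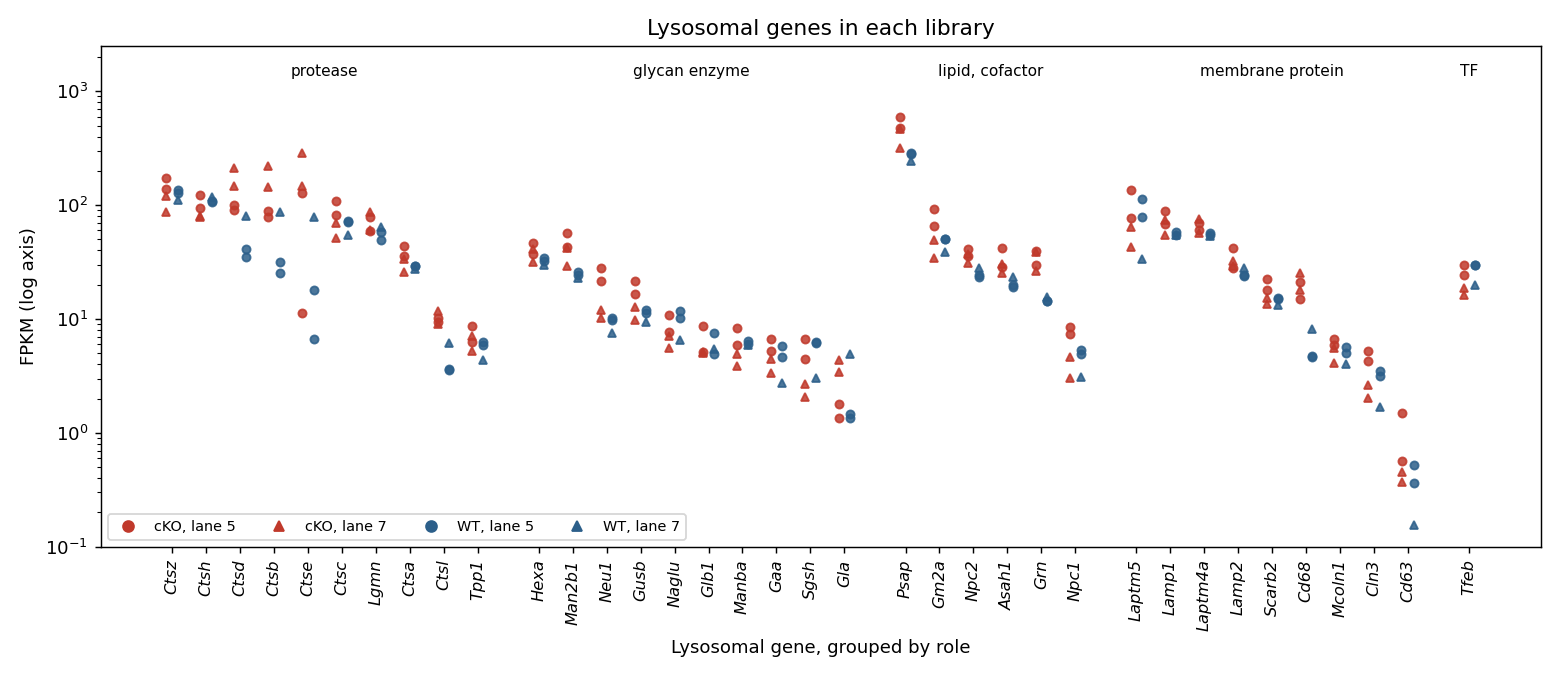
Level of each of the 36 lysosomal genes in FPKM (log axis), grouped by role, with 1 point per library, cKO in red on the left and WT in blue on the right of each gene, circles for lane 5 and triangles for lane 7. Psap lies highest and Cd63 lowest, and Cd68, Grn, Ctsl and Ctsd are among the genes with all cKO points above all WT points.

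Cd68 and Grn rose in cKO libraries against WT libraries, and these were the 2 of 35 tested genes past the threshold of 0.05 on limma's adjusted p. Of all 10065 genes tested, 1.27% were called higher and 0.0497% lower, and 0 of the 35 were called lower. Fold changes are on the scale of log2(FPKM + 0.5), which understates the change of low genes. Positive values were found for 30 of the 35 genes (85.7%), against 38.5% of all genes tested, and the median log2 fold change was 0.28 against -0.09. At an unadjusted limma p under 0.05 stood 10 of the 35 genes, all higher in cKO, where 10.7% of all genes did. Every cKO library exceeded every WT library for 9 of the 35 genes, against 7.99% of all genes tested, and the opposite held for 0 of 35, against 2.14%.

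With the lane as a term in the fit, 8 of the 35 genes rose and 0 fell, against 9.59% and 1.19% of all genes. These were Cd68, Ctsd, Ctsb, Grn, Ctsl, Neu1, Man2b1 and Psap, in order of limma's adjusted p. The median log2 fold change of the 35 was then 0.34, against 0.00 for all genes, and 29 of the 35 values were positive (82.9%, against 49.6%). In lane 5 alone limma called 7 of the 35 genes higher, against 5.83% of all genes. In lane 7 alone, with 1 WT library, the median log2 fold change of the 35 was 0.248, against -0.115 for all genes. The interaction of genotype and lane was past limma's threshold for 0 of the 35 genes (smallest adjusted p = 0.992) and for 0.0497% of all genes. Its unadjusted limma p was under 0.05 for 1 of the 35, against 213 of all 10065 genes tested. With any 1 library left out and no lane term, the log2 fold change was 1.58 to 1.95 for Cd68 and 1.05 to 1.24 for Grn. The calls without the lane term did change with the library left out. They went to 0 without any one of cKO 1, cKO 2, cKO 3, cKO 4, WT 2 or WT 3, and to 4 without WT 1, when Ctsb, Ctsd, Ctsl and Cd68 were called. With the lane term, Ctsb, Ctsd, Ctsl, Neu1, Grn and Cd68 were called in each of the 7 fits that left out 1 library, Man2b1 in 6 and Psap in 2.

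**Figure D2:**
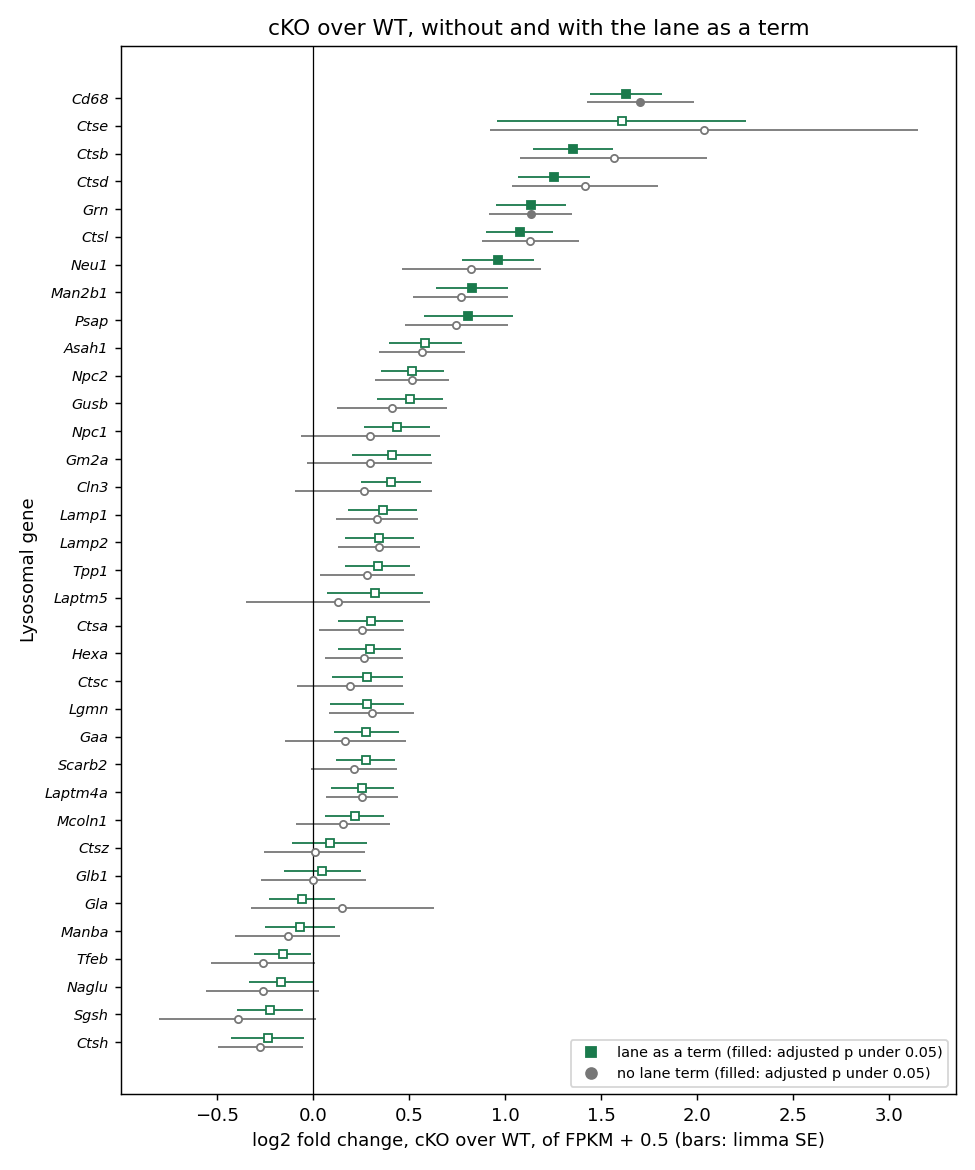
Log2 fold change of FPKM + 0.5, cKO over WT, for the 35 lysosomal genes tested, with limma's SE as bars, from the fit with the lane as a term (green squares) and without it (grey circles), filled where the adjusted p is under 0.05. Filled squares mark 8 genes from Psap up to Cd68, with Ctse open among them, filled circles mark Cd68 and Grn, and Ctse has the widest bars.

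Among the proteases, the aspartic and cysteine cathepsins D, B and L stood higher in cKO libraries, while cathepsins A, C, H and Z did not pass in either fit. Ctsd (chromosome 7, 142375916 to 142387870 in GRCm38) had 101.1, 146.3, 212.8 and 90.8 FPKM in cKO 1 to 4, against 80.0, 40.8 and 34.8 FPKM in WT 1 to 3. The groups did not overlap, but the lowest cKO library was only 1.13 times WT 1. Its log2 fold change was 1.42 (SE 0.38, limma adjusted p = 0.143), and 1.26 (SE 0.19, limma adjusted p = 0.00129) with the lane as a term. Ctsb, which together with Ctsl makes up much of the cysteine protease activity of lysosomes, had 89.7, 143.2, 221.0 and 79.4 FPKM in cKO 1 to 4, against 86.4, 31.7 and 25.2 FPKM in WT 1 to 3. Here the groups overlapped across lanes and were separate within each lane. Its log2 fold change was 1.57 (SE 0.49, limma adjusted p = 0.223) without and 1.35 (SE 0.21, limma adjusted p = 0.00155) with the lane as a term. Ctsl was scarcer, at 10.2, 9.04, 11.7 and 9.44 FPKM in cKO 1 to 4, against 6.19, 3.65 and 3.54 FPKM in WT 1 to 3. Its groups did not overlap, and its log2 fold change was 1.13 (SE 0.25, limma adjusted p = 0.0839), or 1.077 (SE 0.18, limma adjusted p = 0.00198) with the lane term. Both Ctsb and Ctsd were also higher in lane 7 than in lane 5, by 1.28 and 0.96 on the log2 scale (limma adjusted p = 0.000732 and 0.00162 with genotype in the fit).

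In the same libraries the summed level of 7 red pulp macrophage markers, such as Vcam1 and Spic, was 253.8, 463.8, 592.7 and 328.8 FPKM in cKO 1 to 4, against 223.2, 64.0 and 36.6 FPKM in WT 1 to 3. WT 1 was thus the highest WT library for these markers as for Ctsb, Ctsd and Ctsl. All 7 had a higher mean in cKO libraries, none was at 0 in all libraries, and their part in the cathepsin values was not tested. In these bulk samples, more cells of a type and more RNA per cell cannot be told apart.

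Ctse, an aspartic protease of endosomes that is also found in red cells, varied the most. It had 127.1, 147.9, 287.1 and 11.2 FPKM in cKO 1 to 4, against 78.3, 17.8 and 6.71 FPKM in WT 1 to 3. The groups overlapped, since cKO 4 lay below WT 1 and WT 2. The log2 fold change was 2.03 (SE 1.11, limma adjusted p = 0.621), and 1.61 (SE 0.65, limma adjusted p = 0.158) with the lane as a term. The summed level of 8 erythroid markers was 855.5, 1482, 2445 and 89.2 FPKM in cKO 1 to 4, against 809.6, 160.0 and 71.4 FPKM in WT 1 to 3. The 7 libraries stood in the same order for Ctse and for this sum. All 36 genes were compared with every marker sum to find such matches. The part of red cell precursors in the Ctse value was not tested.

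The remaining proteases were more even. Ctsz had 138.7, 87.3, 119.5 and 172.0 FPKM in cKO 1 to 4, against 110.1, 137.1 and 128.8 FPKM in WT 1 to 3. Its log2 fold change was 0.01 (SE 0.26, limma adjusted p = 0.995), and its sign turned with the scaling and the library left out. Ctsh had 95.1, 79.6, 77.9 and 121.8 FPKM in cKO 1 to 4, against 117.9, 107.4 and 108.9 FPKM in WT 1 to 3, with 3 cKO libraries below all WT libraries and cKO 4 above them (log2 fold change -0.27, SE 0.22, limma adjusted p = 0.856). Ctsc, a dipeptidyl peptidase that activates granule proteases, averaged 78.0 ± 24.2 FPKM in cKO libraries (SD, n = 4) and 66.3 ± 9.92 FPKM in WT libraries (SD, n = 3). Ctsa, a carboxypeptidase that also protects Neu1 and Glb1 proteins from degradation, averaged 34.7 ± 7.55 FPKM in cKO libraries (SD, n = 4) and 28.5 ± 0.765 FPKM in WT libraries (SD, n = 3). Lgmn, the asparaginyl endopeptidase legumain, and Tpp1, a tripeptidyl peptidase, differed by 0.31 and 0.28 on the log2 scale, within the spread (adjusted p of 0.794 and 0.883 by limma).

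**Figure D3:**
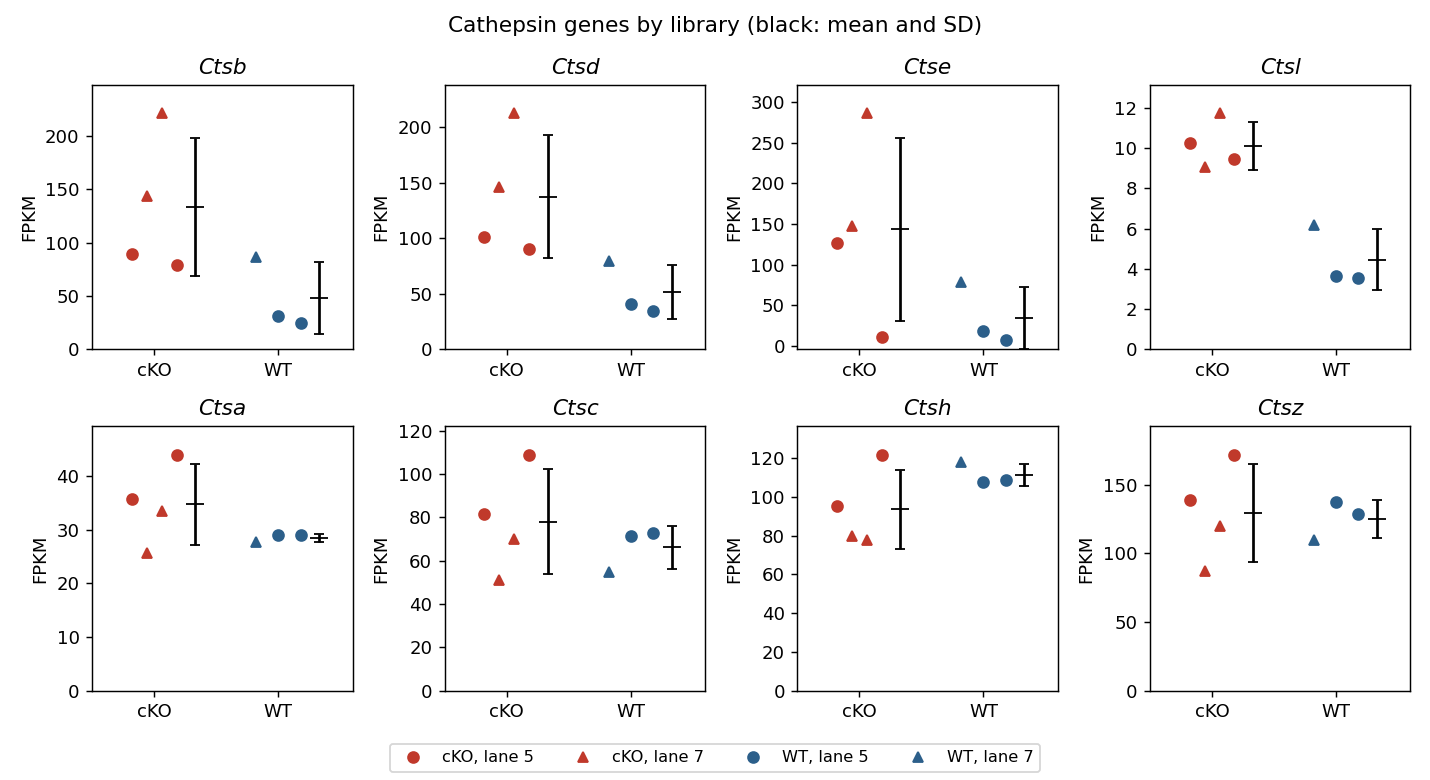
Level in FPKM of 8 cathepsin genes, with 1 point per library, cKO on the left and WT on the right, circles for lane 5, triangles for lane 7, and the mean and SD in black (n = 4 cKO and 3 WT). In the upper row Ctsd and Ctsl have all cKO points above all WT points, Ctsb overlaps through WT 1 and Ctse through cKO 4, and in the lower row the groups overlap.

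Of the 10 glycan-degrading enzymes, Neu1 and Man2b1 rose with the lane as a term. Neu1, the sialidase that removes sialic acid from glycoproteins, had 21.7, 10.1, 11.975 and 28.2 FPKM in cKO 1 to 4, against 7.54, 10.2 and 9.81 FPKM in WT 1 to 3. Its groups overlapped by a narrow margin, since cKO 2 lay just below WT 2. Its log2 fold change was 0.96 (SE 0.19, limma adjusted p = 0.00600) with the lane as a term and 0.82 (SE 0.36, limma adjusted p = 0.463) without. Man2b1, the lysosomal alpha-mannosidase, had 43.2, 29.0, 42.3 and 57.3 FPKM in cKO 1 to 4, against 22.7, 24.3 and 26.0 FPKM in WT 1 to 3, with no overlap. Its log2 fold change was 0.83 (SE 0.19, limma adjusted p = 0.0146) with the lane as a term and 0.77 (SE 0.25, limma adjusted p = 0.246) without. The call of Man2b1 with the lane term was lost without cKO 3 (limma adjusted p = 0.0537).

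Gusb, beta-glucuronidase, and Hexa, a chain of beta-hexosaminidase, averaged 15.2 ± 5.14 and 39.1 ± 6.41 FPKM in cKO libraries (SD, n = 4), and 10.9 ± 1.36 and 32.2 ± 2.45 FPKM in WT libraries (SD, n = 3), and did not pass. Gaa, acid alpha-glucosidase, and Glb1, beta-galactosidase, had fold changes of 0.17 and 0.00 in log2 units (adjusted p of 0.937 and 0.999 by limma). The 4 enzymes with a negative fold change with the lane as a term were Sgsh and Naglu, which both act on heparan sulfate, Manba, beta-mannosidase, and Gla, alpha-galactosidase A. Sgsh had 4.41, 2.05, 2.71 and 6.70 FPKM in cKO 1 to 4, against 3.01, 6.20 and 6.24 FPKM in WT 1 to 3, and Naglu had 7.67, 5.55, 7.14 and 10.9 FPKM in cKO 1 to 4, against 6.52, 11.7 and 10.2 FPKM in WT 1 to 3. Both were low in lane 7 and high in lane 5 in either genotype, with the exception of cKO 1, which lay in between. Manba had 5.89, 3.85, 4.94 and 8.26 FPKM in cKO 1 to 4, against 5.90, 6.41 and 6.05 FPKM in WT 1 to 3. Gla had 1.35, 3.43, 4.37 and 1.80 FPKM in cKO 1 to 4, against 4.97, 1.45 and 1.34 FPKM in WT 1 to 3, which is a split by lane in both genotypes. Log2 fold changes of Sgsh, Naglu, Manba and Gla with the lane as a term were -0.22, -0.16, -0.07 and -0.06 (limma adjusted p = 0.531 to 0.904).

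All 6 genes of the lipid-handling and secreted cofactor group were positive in fold change, and their median was 0.54. Grn (chromosome 11, 102430322 to 102436809 in GRCm38), which encodes progranulin, a secreted precursor that is cut into granulins in lysosomes, had 29.6, 26.3, 39.1 and 39.4 FPKM in cKO 1 to 4, against 15.7, 14.5 and 14.3 FPKM in WT 1 to 3. The lowest cKO library was 1.67 times the highest WT library. Its log2 fold change was 1.13 (SE 0.22, limma adjusted p = 0.0484), 1.13 (SE 0.18, limma adjusted p = 0.00182) with the lane as a term, 1.22 in lane 5 and 1.01 in lane 7. Psap, whose values are given above, had separate groups and a log2 fold change of 0.75 (SE 0.27, limma adjusted p = 0.326), and 0.81 (SE 0.23, limma adjusted p = 0.0474) with the lane as a term. The Psap call with the lane term remained only without cKO 2 or without cKO 4.

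Asah1, acid ceramidase, averaged 31.5 ± 7.29 FPKM in cKO libraries (SD, n = 4) and 20.8 ± 2.14 FPKM in WT libraries (SD, n = 3). Npc2, the soluble cholesterol carrier of lysosomes, averaged 36.3 ± 4.33 FPKM in cKO libraries (SD, n = 4) and 25.2 ± 2.54 FPKM in WT libraries (SD, n = 3). Both had groups that did not overlap, and with the lane term neither passed the threshold (adjusted p of 0.0770 and 0.0677 by limma). Npc1, the membrane partner of Npc2 in cholesterol export, and Gm2a, an activator protein of ganglioside breakdown, had fold changes of 0.30 and 0.29 in log2 units (adjusted p of 0.918 by limma in both cases), with overlapping groups.

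Of the 8 membrane proteins tested, Cd68 alone rose in either fit, and all 8 had a positive fold change in both. Cd68 (chromosome 11, 69664371 to 69666062 in GRCm38) encodes macrosialin, a LAMP family glycoprotein most abundant in macrophages. Its level was 15.02, 17.98, 25.6 and 21.1 FPKM in cKO 1 to 4, against 8.09, 4.74 and 4.67 FPKM in WT 1 to 3. The lowest cKO library was 1.86 times the highest WT library, and WT 1 stood above the other WT libraries. The log2 fold change of Cd68 was 1.70 (SE 0.28, limma adjusted p = 0.0447), 1.63 (SE 0.19, limma adjusted p = 0.000603) with the lane as a term, 1.81 in lane 5 and 1.35 in lane 7. Without the lane term its call ended with each library centred on its median (limma adjusted p = 0.0636) or with quantile normalization (limma adjusted p = 0.0621). In the same libraries the summed level of 17 monocyte and macrophage markers, Cd68 not among them, was 721.9 to 1021 FPKM in cKO libraries and 182.5 to 392.1 FPKM in WT libraries. All 17 had a higher mean in cKO libraries, and none was at 0 in all libraries. Of this list, Lyz2, the lysozyme of macrophages, had 318.8, 356.6, 214.2 and 436.4 FPKM in cKO 1 to 4, against 97.3, 76.1 and 104.9 FPKM in WT 1 to 3. The part of such cells in the values of Cd68 and Grn was not tested.

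Lamp1 and Lamp2, the most abundant glycoproteins of the lysosomal membrane, averaged 71.4 ± 13.7 and 32.8 ± 6.31 FPKM in cKO libraries (SD, n = 4), and 55.8 ± 2.17 and 25.5 ± 2.47 FPKM in WT libraries (SD, n = 3), with overlapping groups. Laptm4a, a small transporter-like membrane protein, had separate groups by a small margin, at 57.4 to 74.9 FPKM in cKO libraries and 53.2 to 56.5 FPKM in WT libraries (log2 fold change 0.26, SE 0.19, limma adjusted p = 0.807). Laptm5, which in lymphocytes sends antigen receptors to lysosomes, had 76.9, 42.9, 64.9 and 134.8 FPKM in cKO 1 to 4, against 33.4, 79.4 and 112.9 FPKM in WT 1 to 3. Its spread was mainly one of lane, with a difference of -1.16 on the log2 scale between lane 7 and lane 5 (limma adjusted p = 0.00273). Scarb2, which carries glucocerebrosidase to lysosomes, and Cln3, a membrane protein lost in juvenile Batten disease, had fold changes of 0.21 and 0.26 in log2 units (adjusted p of 0.918 and 0.919 by limma).

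Mcoln1, the lysosomal calcium channel TRPML, had 5.94, 4.08, 5.51 and 6.68 FPKM in cKO 1 to 4, against 4.05, 5.02 and 5.63 FPKM in WT 1 to 3, with overlapping groups and a log2 fold change of 0.16 (SE 0.25, limma adjusted p = 0.926). Tfeb was the single gene of its group. It had 24.6, 16.4, 18.9 and 29.9 FPKM in cKO 1 to 4, against 19.9, 30.1 and 30.0 FPKM in WT 1 to 3. Within lane 5 both WT libraries were above both cKO libraries, by a narrow margin over cKO 4, and in lane 7 WT 1 was above both cKO libraries. The log2 fold change was -0.26 (SE 0.27, limma adjusted p = 0.918), and -0.16 (SE 0.15, limma adjusted p = 0.623) with the lane as a term. With each library centred on its median as well as the lane term, Tfeb was -0.25 and past the threshold (limma adjusted p = 0.0456). It was the single gene of the 35 called lower there, where 12.7% of all genes were, and 13 were called higher, against 9.46% of all genes.

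Lanes differed for many of these genes with genotype in the fit. Limma called 4 of the 35 higher in lane 7 than in lane 5 (Ctsb, Ctsd, Ctse and Gla), against 8.67% of all genes, and 11 lower, against 58.2%. The median difference was -0.32 on the log2 scale for the 35 genes and -0.50 for all genes tested.

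**Figure D4:**
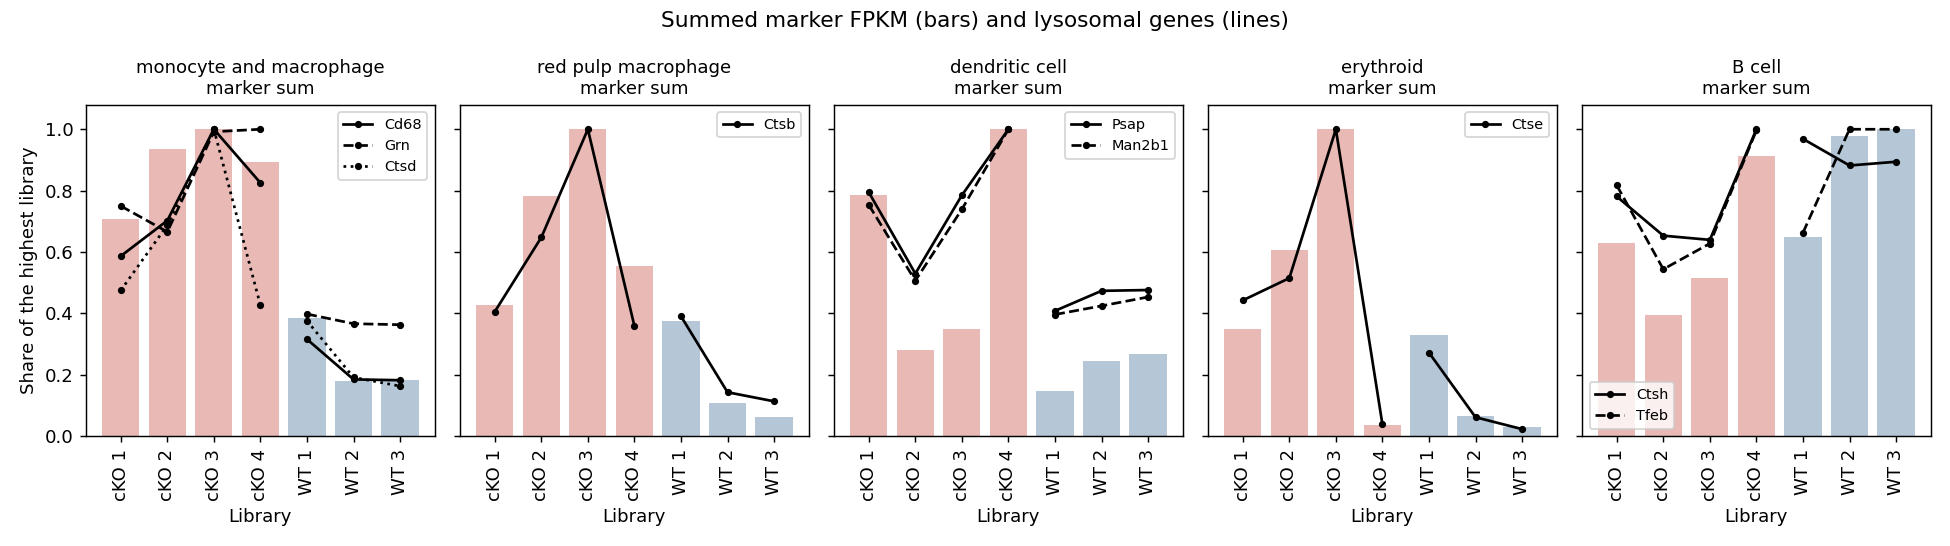
Summed FPKM of 5 marker lists (bars, cKO red and WT blue) and the level of lysosomal genes (black lines) in each library, each as a share of its highest library, with libraries cKO 1 to 4 on the left and WT 1 to 3 on the right. Ctse is in the same library order as the erythroid sum, Psap and Man2b1 in the same order as the dendritic cell sum, and Cd68 and Grn lie above all WT libraries in all cKO libraries as the monocyte and macrophage sum does. The pairs shown were chosen after the values were seen.

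The summed level of 8 dendritic cell markers was 75.8, 27.2, 33.6 and 96.5 FPKM in cKO 1 to 4, against 14.2, 23.6 and 25.7 FPKM in WT 1 to 3. Psap and Man2b1 ordered the 7 libraries as this sum did. All 8 of these markers had a higher mean in cKO libraries and none was at 0 in all libraries, and their part in Psap and Man2b1 was not tested. None of the 10 B cell markers had a higher mean in cKO libraries. Their sum was lowest in cKO 2 and cKO 3, as Ctsh and Tfeb were, and these are the cKO libraries of lane 7. The difference of lane 7 from lane 5 was -0.60 for Tfeb and -0.22 for Ctsh on the log2 scale. Its median over the 10 B cell markers was -0.62. The highest library was WT 3 for the B cell sum, cKO 4 for Ctsh and WT 2 for Tfeb. The part of B cells in the values of Ctsh and Tfeb was not tested.

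Beyond the 36 genes, a list of 90 other lysosomal genes was measured, of which 86 were tested. Without the lane term 3 rose and 0 fell in limma, where 1.27% of all genes were called higher and 0.0497% lower. Ppt2, a palmitoyl thioesterase, had 5.90, 6.47, 8.19 and 8.11 FPKM in cKO 1 to 4, against 2.56, 1.72 and 1.55 FPKM in WT 1 to 3 (log2 fold change 1.66, SE 0.25, limma adjusted p = 0.0447). Sort1, the sorting receptor sortilin, had 4.31, 3.20, 4.88 and 5.71 FPKM in cKO 1 to 4, against 1.4993, 1.03 and 1.09 FPKM in WT 1 to 3 (log2 fold change 1.54, SE 0.26, limma adjusted p = 0.0447). Acp2, lysosomal acid phosphatase, had 5.19, 5.35, 7.56 and 5.75 FPKM in cKO 1 to 4, against 2.88, 1.52 and 1.41 FPKM in WT 1 to 3 (log2 fold change 1.44, SE 0.28, limma adjusted p = 0.0491). All 3 are scarce genes whose groups did not overlap.

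With the lane as a term 13 of the 86 rose and 0 fell, against 9.59% and 1.19% of all genes. Besides Ppt2 and Sort1, the smallest p-values belonged to Slc11a1 and Ctsw. Slc11a1, the phagosomal metal transporter of macrophages, had 10.9, 15.5, 23.7 and 13.7 FPKM in cKO 1 to 4, against 7.62, 2.57 and 2.21 FPKM in WT 1 to 3 (1.80, SE 0.22, limma adjusted p = 0.000652). Ctsw, a cathepsin of NK and cytotoxic T cells, had 5.65, 1.57, 1.55 and 5.36 FPKM in cKO 1 to 4, against 0.5001, 1.124 and 1.27 FPKM in WT 1 to 3 (1.51, SE 0.19, limma adjusted p = 0.000674). The sum of 8 NK cell markers was 35.7 to 78.8 FPKM in cKO libraries and 15.7 to 20.2 FPKM in WT libraries, and its part in the Ctsw value was not tested. The median of the 86 was 0.12 in that fit and 0.05 without the lane term, against 0.00 and -0.09 for all genes. The 17 proton pump genes had 0 calls in either direction in both fits. At an unadjusted limma p under 0.05 stood 0 without the lane term and 3 with it, against 1073 and 2315 of all 10065 genes tested. The most abundant genes of the list were Ctss, cathepsin S, which trims the invariant chain for MHC class II, at 302.8 ± 101.5 FPKM in cKO libraries (SD, n = 4) and 324.2 ± 40.0 FPKM in WT libraries (SD, n = 3), and Atp6v0e, a pump subunit, at 100.6 ± 7.51 FPKM in cKO libraries (SD, n = 4) and 102.5 ± 3.44 FPKM in WT libraries (SD, n = 3). Acp5, an acid phosphatase, and Atp6v1f, another pump subunit, came next, with log2 fold changes of -0.20 and -0.15. Tfe3, a factor related to Tfeb, averaged 5.199 ± 2.26 FPKM in cKO libraries (SD, n = 4) and 3.68 ± 1.23 FPKM in WT libraries (SD, n = 3), without passing (limma adjusted p = 0.882). Tfec, the family member of myeloid cells, rose with the lane as a term, at 2.15 ± 0.547 FPKM in cKO libraries (SD, n = 4) and 0.646 ± 0.548 FPKM in WT libraries (SD, n = 3). That is 1.16 on the log2 scale (SE 0.19, limma adjusted p = 0.00182).

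Promoter windows from RefSeq (GRCm38.p6), 250 bases before to 50 after a gene start, were found for 31 of the 36 genes. The exceptions were Asah1, Ctsb, Ctse, Ctsh and Npc1. The palindrome CACGTG, the core of the element that Tfeb binds, reads the same on both strands and lay in a window of 12 of the 31 genes (38.7%), against 8.09% of all 27025 genes with a window and 12.6% of the 7547 with a window that were tested. The letters TCACGTG or their complement CACGTGA, which overlap that core, lay in 11 of the 31 (35.5%), against 4.29% of all genes and 7.63% of those tested. Of the 7 genes with a window that rose with the lane as a term, 2 held CACGTG (Ctsd and Ctsl), and of the 24 others 10 did. The median log2 fold change with the lane as a term was 0.28 for the genes with CACGTG and 0.34 for those without. The forkhead letters TGTTTAC, or GTAAACA on the other strand, lay in 0 of the 31 genes, against 4.05% of all genes and 3.13% of those tested.

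Windows of 3 genes with the palindrome and of the 2 genes called without the lane term, which lack it, are shown 5′ to 3′ on the gene's strand, with each CACGTG in capitals. They are Ctsd (chr7:142387778-142388077, minus strand), Cln3 (chr7:126583187-126583486, minus strand, around 1 of its 2 listed starts), Mcoln1 (chr8:3500269-3500568, plus strand), Cd68 (chr11:69666121-69666420, minus strand) and Grn (chr11:102430257-102430556, plus strand), all in GRCm38.p6. In Ctsd the copies begin 245 and 98 bases before the start, in Cln3 149 and 121, and in Mcoln1 71 and 45. The second copy of Cln3 lies in a full CLEAR element, the longer palindrome that Tfeb binds. That element was found in 0.37% of all genes with a window and 0.97% of those tested.
Ctsd: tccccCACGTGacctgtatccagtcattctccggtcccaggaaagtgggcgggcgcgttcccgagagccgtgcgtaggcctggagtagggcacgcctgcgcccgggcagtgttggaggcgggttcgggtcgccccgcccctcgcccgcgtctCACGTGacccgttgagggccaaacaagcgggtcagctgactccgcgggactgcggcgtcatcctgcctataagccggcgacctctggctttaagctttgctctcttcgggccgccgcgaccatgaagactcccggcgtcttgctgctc
Cln3: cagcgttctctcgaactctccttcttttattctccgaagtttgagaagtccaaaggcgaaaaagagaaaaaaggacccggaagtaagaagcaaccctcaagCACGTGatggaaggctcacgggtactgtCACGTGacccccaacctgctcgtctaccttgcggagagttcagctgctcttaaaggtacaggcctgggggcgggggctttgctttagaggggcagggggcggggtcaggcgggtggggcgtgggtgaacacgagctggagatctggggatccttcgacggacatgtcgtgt
Mcoln1: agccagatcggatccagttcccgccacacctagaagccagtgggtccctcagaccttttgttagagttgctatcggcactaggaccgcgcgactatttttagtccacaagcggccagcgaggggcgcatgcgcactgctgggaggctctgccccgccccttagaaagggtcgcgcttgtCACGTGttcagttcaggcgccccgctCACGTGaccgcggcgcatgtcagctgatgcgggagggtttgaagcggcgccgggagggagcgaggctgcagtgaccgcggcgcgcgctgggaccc
Cd68: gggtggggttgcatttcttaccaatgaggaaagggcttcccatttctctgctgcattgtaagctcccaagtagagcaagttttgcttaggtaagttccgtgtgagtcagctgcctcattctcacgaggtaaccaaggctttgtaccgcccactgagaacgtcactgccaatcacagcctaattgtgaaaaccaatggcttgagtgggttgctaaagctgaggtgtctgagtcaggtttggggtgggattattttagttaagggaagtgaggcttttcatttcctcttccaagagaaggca
Grn: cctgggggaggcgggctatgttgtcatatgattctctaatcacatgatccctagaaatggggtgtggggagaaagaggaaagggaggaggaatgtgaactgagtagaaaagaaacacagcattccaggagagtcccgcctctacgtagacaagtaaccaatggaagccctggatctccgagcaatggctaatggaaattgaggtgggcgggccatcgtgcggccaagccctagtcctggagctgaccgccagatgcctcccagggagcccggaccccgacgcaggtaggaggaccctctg
Ctsd rose with the lane as a term, while Cln3 and Mcoln1, with the same palindrome, did not pass, and Cd68 and Grn passed in both fits without it. A match is a description of these letters in this window and not a bound site.

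The authors' deposited table compares arms named q1 and q2 without saying which genotype each is. It lists a positive test statistic (q2 over q1) for 28 of the 36 genes. The share of positive statistics over all genes there was not computed, so this count cannot be set against it. By the authors' deposited table, q was under 0.05 with a positive statistic for 6 of the 36 genes, against 14.1% of the 12100 genes tested there, and with a negative one for 0, against 1.09%. The 6 in the authors' deposited table were Cd68 and Grn (q = 0.000796 for each), Ctse and Ctsl (q = 0.00204 for each), Ctsd (q = 0.00546) and Neu1 (q = 0.00804). Ctse is among them although its groups overlapped by library. The table rests on the same libraries, so it is no independent evidence.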

How the data were processed

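Per the file headers, the authors deposited 1 FPKM value per gene and library with a status. TopHat2, Cufflinks and Cuffdiff (no versions) and the mm9 build are named in the submitters' processing notes, but 98.3% of 21786 positions matched by symbol overlap the GENCODE M21 gene, so positions are GRCm38, with starts made 1-based. A second table the authors deposited lists for each gene a test statistic, used as a score, with its p-value and q-value. Groups, replicate numbers and lanes come from titles and descriptions.

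The 10065 genes with status OK in all 7 libraries and a mean FPKM of at least 1 entered limma 3.58.1 (R 4.3.3, eBayes with trend) as log2(FPKM + 0.5). Tests were two-sided, adjusted after Benjamini and Hochberg over all of these genes, with a threshold of 0.05. Values from a fit that adds the lane stand beside these because the lanes differ. The fits were tested on simulated data. No strand setting is given in the sources used here, so reads of overlapping genes may be shared. Depth is not given, so errors are SDs over libraries. The genes and lists were chosen with earlier results of these data known. Values per library are given for genes past the threshold in either fit, those lower in cKO with the lane term, the 4 most abundant, Tfeb and Mcoln1. Ctse, Laptm5, Tfe3, Tfec, Lyz2, the marker sums and the comparison of motifs were added after values were seen, as were the promoters printed. Figures were drawn with matplotlib 3.10.9.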

Additional observations from a re-analysis of the deposited data

Results flagged for a closer look

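A library far from the rest of its group was looked for in each of the 36 genes over the 4 cKO libraries. It was found for 1 gene, where about 1 in 20 would be flagged by chance. Glb1 was 8.75 FPKM in cKO 4 and 5.04 to 5.18 FPKM in cKO 1 to 3, a gap of 0.962 of the range. Small RNA genes took up 11.9% of all FPKM in cKO 4, but 41.9% to 60.4% elsewhere, and their part in this value was not tested. The groups of 3 WT libraries are too small for this check.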

How the results depend on the processing

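The count of 2 lysosomal genes called was 1 with a pseudocount of 0.1, with a pseudocount of 1 or without the trend, and 0 without a filter on low values or with a mean FPKM of at least 5 (9 and 10 at an unadjusted limma p under 0.05). It was also 2 with median centring alone and with quantile normalization alone, but these were Grn and Man2b1 (limma adjusted p = 0.0436 and 0.0293 centred, 0.0216 and 0.0446 quantile normalized), and Cd68 was not called (limma adjusted p = 0.0636 and 0.0621). Grn was the gene not called with a pseudocount of 0.1 (limma adjusted p = 0.0503), with a pseudocount of 1 (0.05 after rounding, just above the threshold) and without the trend (0.0561). The count was 8 with the lane as a term and 7 in lane 5. It was 14 with the lane and median centring (13 higher, 1 lower), and 10 with the lane and quantile normalization. Lane 7 alone holds 1 WT library, so no count is given for it. Leaving out 1 library gave 0 to 4, and 6 to 11 with the lane as a term (chosen after seeing the data, as were quantile normalization with the lane and the fit of 6 libraries below). The count of 3 other lysosomal genes called was 0 without a filter or with a mean FPKM of at least 5, and 13 with the lane. It was 24 with the lane and centring (16 higher, 8 lower) and 22 with the lane and quantile normalization (16 higher, 6 lower). It was 10 in lane 5, 7 at a threshold of 0.1, and 0 to 6 leaving out 1 library (9 to 18 with the lane). Of all genes tested, 9.59% were called higher and 1.19% lower with the lane, and 5.83% and 0.248% in lane 5. With the lane and centring 9.46% were higher and 12.7% lower. With the lane and quantile normalization 814 were higher and 1168 lower, of 10065. Same-numbered libraries did not deviate together (correlations of deviations -0.407, -0.502 and -0.692). Each of these pairs was split between the lanes, and the deviations were not adjusted for lane. The check therefore cannot show whether the numbers mark pairs. With the replicate block on numbers 1 to 3, 0 lysosomal genes and 0 other lysosomal genes were called, with 6 and 10 at an unadjusted limma p under 0.05. Without the block in these 6 libraries the calls were also 0 and 0, with 11 and 18 at that p. For these fits and the changed filters above, the share of all genes at that p is not given, so these counts cannot be set against it.

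The median over the lysosomal genes stayed positive, between 0.17 (without cKO 4) and 0.44 (lane 5). Signs turned for genes near 0, none of them called. In lane 7 alone Ctsz was -0.107, Gla -0.322 and Glb1 -0.089, and in lane 5 alone Manba was 0.154. Centring made Glb1 -0.006, quantile normalization Glb1 -0.02 and Gla -0.02, the lane term Gla -0.056, the lane with centring Ctsz -0.004, Gla -0.147 and Glb1 -0.04, and the lane with quantile normalization Gla -0.309 and Glb1 -0.056. With 6 libraries, with or without the replicate block, Ctsz was -0.141, Glb1 -0.178 and Laptm5 -0.162. Leaving out 1 library gave -0.141 to 0.183 for Ctsz, -0.122 to 0.664 for Gla, -0.178 to 0.166 for Glb1, -0.104 to 0.376 for Gaa, -0.312 to 0.025 for Manba, -0.366 to 0.504 for Laptm5 and -0.003 to 0.467 for Cln3. The cause of these shifts was not tested. Counts are not given and no counting error was computed, which limits the scarce genes such as Cd63 and Gla most.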
